A study of Mus musculus with 12 samples.

Results

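The genes of the cytosolic ribosomal proteins were followed in embryonic mouse hearts with and without the histone chaperone gene Hira. They were taken by name: of the 91 symbols in the deposited table that begin with Rpl or Rps and a digit, the 10 ribosomal S6 kinase symbols and the 2 that end in l1 (Rpl7l1 and Rpl22l1) were left out. The 79 that remained, of 20368 genes in all, are 47 large subunit and 32 small subunit symbols on 19 chromosomes. They include the X-linked Rps4x, Rpl10, Rpl36a and Rpl39, which the comparisons of the authors do not hold. A few carry the name only in part. Rps19bp1 encodes a protein that binds RPS19 and is not a subunit itself, and the row named Rpl24 carries the Ensembl identifier of Zbtb11, the gene next to Rpl24 on chromosome 16, so its identity is uncertain.

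Hearts of CD1 embryos were flash frozen and their RNA was sequenced at E11.5 and E12.5, 3 libraries for each stage and genotype. The controls were Mesp1Cre;Hira+/fl and the mutants Mesp1Cre;Hira-/fl. Both genotypes carry the Cre, which acts in the early cardiac mesoderm, so controls keep 1 working Hira allele in that lineage and mutant hearts keep Hira in cells of other origin. The labels do not say whether a library is 1 heart or a pool, and p-values measure the spread between these libraries. In every group but the E11.5 controls, libraries differed in Y-linked counts (given below), so they did not all come from the same embryos. In the E11.5 controls these counts cannot tell whether the spread is technical.

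A ribosome needs a copy of nearly every ribosomal protein, and their genes are transcribed at high and closely matched rates. Their mRNAs are short, begin with a run of pyrimidines at the cap (the 5′ terminal oligopyrimidine or TOP motif), and are translated under the control of mTOR and LARP1. Several subunits have a second role: RPL5 and RPL11 bind MDM2 when ribosome assembly fails, and a few genes have paralogs made in particular tissues, such as Rpl3l in striated muscle.

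The libraries held 12419018 to 18114458 counts, of which 3.61% to 6.28% fell on the 79 genes. Hira itself, counted over the whole gene, had 735 to 1334 counts per library at E11.5 and 988 to 1533 at E12.5, with the genotypes overlapping at both stages. The log2 change in mutants, by the quasi-likelihood test of edgeR with Benjamini-Hochberg adjustment over all genes, was -0.26 at E11.5 (SE 0.14, adjusted p = 0.622) and -0.01 at E12.5 (SE 0.12, adjusted p = 0.966). A count over the whole gene cannot show the loss of the single exon that the allele removes, so it does not check the labels. The 9 cardiomyocyte markers summed to 20849 to 28732 CPM (counts per 1000000 counts, scaled by TMM, which sets library size from the bulk of genes) in the 12 libraries. Y-linked genes had over 100 counts in all 3 E11.5 control libraries but in only 1 library of each other group (1 to 8 counts in the rest), so sex and genotype can be told apart only in part at E11.5. In E11.5 control 3 and E11.5 mutant 3 counts were shifted most towards short genes, and results that rest on them are given with and without them. The slope of log2 deviation on log2 gene length, described further on, was -0.135 and -0.23 there. It was 0.15, a shift towards long genes, in E12.5 control 1.

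As a group the 79 genes were among the most abundant transcripts of the heart. Their median level was 820.0 RPKM (reads per kilobase of gene, scaled for depth), against 11.2 for the 12612 genes tested over the 12 libraries. They made up 44 of the 100 highest genes and 63 of the 200 highest, and 73 of the 79 were above 100 RPKM. The highest were Rps4x at 1709.7, Rps20 at 1521, Rps3a1 at 1481 and Rps14 at 1391 RPKM, all of the small subunit. Rps4x was the highest of the 4 and Rps14 the lowest in each of the 12 libraries, while Rps20 and Rps3a1 changed places between libraries.

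**Figure D1:**
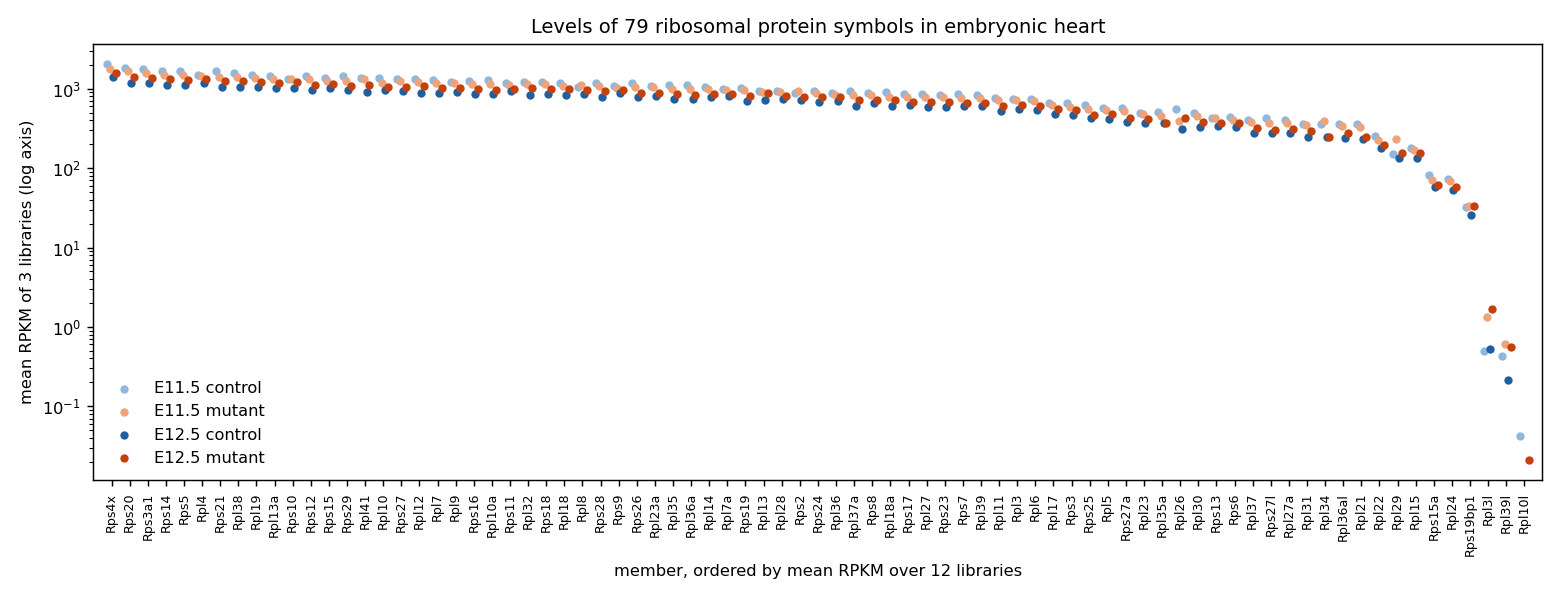
Mean RPKM of 3 libraries (log axis) of each of the 79 symbols in the 4 groups, ordered by the mean over 12 libraries. Most members lie between 300 and 3000 RPKM, and Rpl3l, Rpl39l and Rpl10l lie far below at under 10; groups in which Rpl10l had no count have no point.

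At the bottom of the order were the paralogs. Rpl10l, the retrocopy of Rpl10 known from testis, had 1 count in each of 3 libraries and 0 in the other 9, and Rpl39l had 0 to 12 counts per library. Their X-linked parent genes stood at 1146 RPKM (Rpl10) and 715 RPKM (Rpl39). The 2 other pairs were less unequal: Rps27l, a target of p53, stood at 343 RPKM beside 1141 for Rps27, and Rpl36al at 302 beside 928 for Rpl36a. Rps19bp1 stood at 31.3 RPKM.

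Most of these genes share some sequence with other annotated genes. How much of each transcript is shared was not measured, nor was the share of genes outside the family with such a stretch. In GENCODE vM21, 75 of the 79 shared an identical stretch with another annotated gene, found with 50-base words, and the median number of such genes was 9. Rpl7a shared stretches with 116 other genes, Rpl21 with 80 and Rpl29 with 71, and of the 80 genes of Rpl21, 79 are annotated as pseudogenes. The reads of these genes and their copies could have been split or dropped by the counting, whose treatment of such reads is not given in the sources used here. Rpl3l shared no such stretch with any gene, and its longest identical run with Rpl3 was 22 bases.

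RefSeq start sites (GRCm38.p6) were matched for 60 of the 79. A run of 8 or more C or T reaching within 25 bases of the start was present in 37 of them (61.7%), against 2563 of 9420 other genes tested (27.2%). Such a run may lie wholly before the start. A C at an annotated start itself was present in 19 of the 60 (31.7%), against 17.9% of other genes. Among 300-base promoters, CCGGAAG on either strand was present in 40% of members and 19.4% of other genes, and TATAAA in 8.33% and 8.64%. AAGATGG was found in 15% and 8.15%, GGGCGG in 60% and 69.7%, and GAGAGAGA in 1.67% and 3.98%. The 30 bases around the annotated start are printed for members on which later values turn, 5′ to 3′ on the strand of the gene, with the longest pyrimidine run in capitals. The 16th base is the annotated start, which need not be the base where most transcripts begin.
Rps6 (chr4:86857353-86857382, - strand): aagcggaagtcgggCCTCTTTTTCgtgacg
Rpl38 (chr11:114668565-114668594, + strand): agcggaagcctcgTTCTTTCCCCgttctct
Rpl13 (chr8:123102335-123102364, + strand): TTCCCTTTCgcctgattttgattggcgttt
Rps27l (chr9:66946071-66946100, + strand): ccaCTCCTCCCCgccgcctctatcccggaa
Rpl26 (chr11:68901551-68901580, + strand): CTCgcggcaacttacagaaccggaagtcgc
Rpl3l (chr17:24727811-24727840, + strand): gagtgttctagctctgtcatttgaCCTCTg
Rps6 and Rpl38 had runs of 10 pyrimidines in this window, Rpl13 and Rps27l of 9, Rpl3l of 5 and Rpl26 of 3.

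The member that differed most between the genotypes was Rpl3l, the striated muscle paralog of the large subunit protein gene Rpl3 (chromosome 17, 24727820 to 24736143 of GRCm38, + strand). Rpl3l was a rare transcript, with 301 counts in all against 169517 for Rpl3. At E11.5 the controls had 4, 11 and 21 counts and the mutants 30, 32 and 32. At E12.5 the controls had 14, 17 and 12 counts and the mutants 46, 39 and 43. Each mutant library was above every control library at both stages, as was true in this direction of 8.31% of all genes at E11.5 and 13.7% at E12.5.

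Rpl3l rose in E12.5 mutants from 0.838 ± 0.11 to 2.65 ± 0.4 CPM (SD, n = 3 each). This was a 3.12-fold difference, or a log2 change of 1.64 (SE 0.29, adjusted p = 0.0129, edgeR; exact permutation p = 0.1, the smallest that 3 against 3 allow). At E11.5 the levels were 0.781 ± 0.588 and 2.14 ± 0.465 CPM (SD, n = 3 each), with a log2 change of 1.44 (SE 0.53, adjusted p = 0.377, edgeR), which did not pass the test. A gene was tested if its mean over both groups was at least 0.5 RPKM. At E11.5 the control mean of Rpl3l was 0.49 RPKM, so it entered this test through the mutants, at 1.34. The effects at the stages were not shown to differ, by 0.20 (SE 0.61, adjusted p = 0.969, edgeR). Within controls the log2 difference of E12.5 from E11.5 was 0.12 (SE 0.55) and within mutants 0.31 (SE 0.28), with adjusted p = 0.904 and 0.769 (edgeR). The E12.5 call was lost with all 12 libraries in 1 fit (1.65, adjusted p = 0.0802, edgeR) and without E12.5 mutant 1 (1.54, adjusted p = 0.05004, edgeR), and the adjusted p was 0.00316 to 0.0802 over the alternatives. Over them the log2 change was 0.80 to 1.76. At E11.5 the adjusted p was 0.111 to 0.666 and the log2 change 0.67 to 2.16, with 2.16 without E11.5 control 3 and 1.02 without E11.5 control 1.

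Set against its parent gene, Rpl3l had 0.261, 0.764 and 1.24 counts per 1000 counts of Rpl3 in E11.5 controls and 2.27, 2.18 and 2.15 in E11.5 mutants. At E12.5 the ratios were 1.2, 1.29 and 0.864 in controls and 3.51, 2.69 and 3.15 in mutants. The genotypes did not overlap on this ratio at either stage, and library size does not enter it. The cardiomyocyte markers overlapped between genotypes, at 23609 to 25109 CPM in controls and 22912 to 28732 in mutants at E12.5, and Rpl3l per 1000000 counts of these markers was 34.7 ± 4.53 in controls and 106 ± 21.6 in mutants (SD, n = 3 each). In bulk tissue, more cells of a type and more RNA per cell cannot be told apart.

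**Figure D2:**
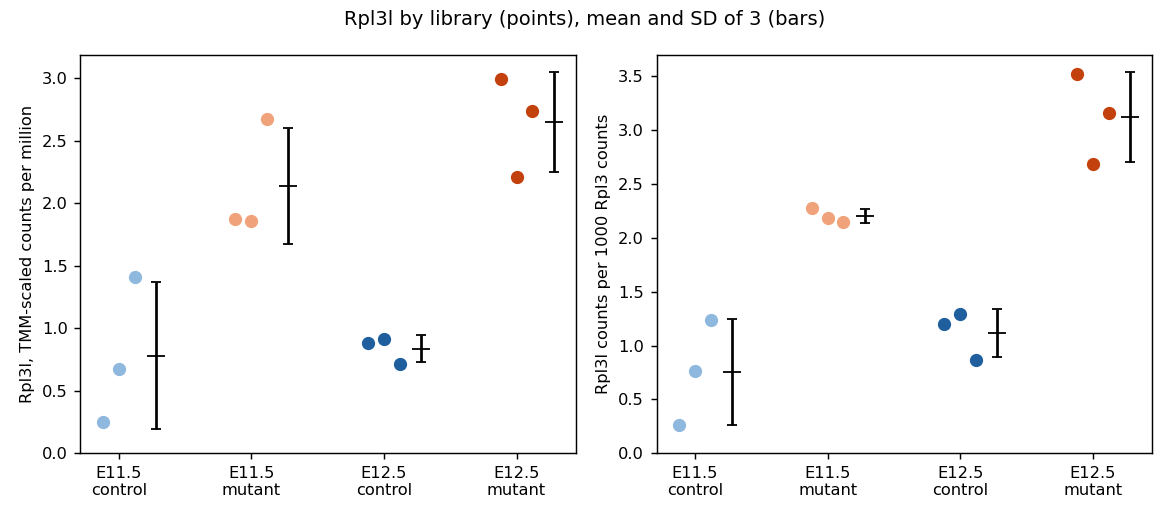
Rpl3l in the 12 libraries (points) with the mean and SD of each group of 3, as CPM (left) and as counts per 1000 counts of Rpl3 (right). All mutant points lie above the control points of their stage, from 1.86 to 2.99 CPM in mutants and from 0.251 to 1.41 CPM in controls.

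For the family as a whole, no change was called between mutant and control hearts at E11.5. None of the 78 members tested passed an adjusted p of 0.05 with edgeR, where 0.12% of all genes did. Rpl3l was the 1 member with an unadjusted p under 0.05, which 10.1% of all genes had, and DESeq2 and limma also called 0. The median log2 fold change was -0.11, with 71 of 78 below 0, against 0.0006 over all genes and -0.06 over other short genes. It was -0.01 with the trend on gene length removed, and genes outside the family no longer than the median member were at -0.10. Other short genes are the 1990 tested genes outside the family no longer than 1457 bases, the 90th percentile of member length. Among members, Rpl29 had the lowest p after Rpl3l in the upward direction, 0.63 (SE 0.36, adjusted p = 0.643, edgeR), and Rpl26 the lowest downward, -0.51 (SE 0.31, adjusted p = 0.683, edgeR). Both vary between single libraries whatever the genotype, as described further on.

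The sign of that median rested on a few libraries. It was -0.38 without E11.5 mutant 3, -0.23 with E11.5 control 3 and E11.5 mutant 3 both left out, 0.02 without E11.5 control 3, and 0.32 with embryo sex as a covariate. In each of these fits 0 members were called. The 7 macrophage markers, each lower in mutants and 1 called, summed to 68.2 to 126 CPM in controls and 30.7 to 38.3 CPM in mutants. The 5 epicardial markers, all lower, summed to 366 to 578 CPM and 262 to 346 CPM, and the 6 endothelial markers, all higher, to 812 to 1014 CPM and 957 to 1414 CPM. The part of these markers in the values of the family was not tested.

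At E12.5 the log2 fold changes of the family were small and nearly all positive. Of 77 members, 76 were above 0 and the median was 0.19, against -0.0027 over all genes, 0.11 over other short genes and 0.15 over short genes that were also abundant (n = 202). In 45 of 77 every mutant library was above every control library, where 13.7% of all genes were separated that way; among other short abundant genes it was 75 of 202. Only 2 members were called, both higher: Rpl3l and Rpl41. That is 2.6% of members, beside 4.89% of all genes, while 43 members had an unadjusted p under 0.05, beside 21.3% of all genes. With a fold of at least 1.5 asked as well, Rpl3l alone remained, beside 2.97% of all genes. With the trend of fold change on gene length removed, as described further on, the median was 0.08 and Rpl3l was the 1 member called, beside 4.72% of all genes.

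Rpl41 encodes the smallest protein of the large subunit. It stood at 386, 400.1 and 439 CPM in E12.5 controls and at 493, 491 and 519 CPM in mutants. The groups did not overlap, with a log2 change of 0.29 (SE 0.07, adjusted p = 0.0485, edgeR). The call held in 5 of 19 alternatives, over which the adjusted p was 0.00613 to 0.631, and with the length trend removed the value was 0.15 (SE 0.06, adjusted p = 0.202, edgeR).

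The members next in order were Rpl13 with 0.27 (SE 0.08, adjusted p = 0.0754, edgeR), Rpl32 with 0.28 (SE 0.08, adjusted p = 0.0807) and Rpl12 with 0.29 (SE 0.09, adjusted p = 0.0832). None passed. Rpl13 stood at 513, 569.7 and 611 CPM in controls and 688, 689 and 669.5 in mutants, so its groups did not overlap. The one member below 0 was Rpl35a, at -0.01 (SE 0.07). The count of calls moved with the fit: it was 8 with DESeq2, 16 without E12.5 control 3, 0 without E12.5 mutant 1, 1 without any single other library of the 6, and 0 with all 12 libraries in 1 fit.

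Of the subunits known for roles outside the ribosome, the following values were found at E12.5. Rpl5 stood at 0.21 (SE 0.08, adjusted p = 0.157) and Rpl11 at 0.21 (SE 0.08, adjusted p = 0.148), and both were separated between the genotypes without passing edgeR's test. Rps19, mutated in Diamond-Blackfan anaemia, stood at 0.23 (SE 0.08, adjusted p = 0.117), and Rpl38, needed for axial patterning in the mouse, at 0.24 (SE 0.08, adjusted p = 0.128). Rps6, the target of the S6 kinases, stood at 0.18 (SE 0.08, adjusted p = 0.259). Rps27l, the p53 target, stood at 0.09 (SE 0.09, adjusted p = 0.575).

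Of 21 growth regulators of the ribosome, 1 was called at E12.5, a share (4.76%) close to the 4.89% of all genes. Cdkn1a, the p53 target that encodes the cell cycle inhibitor p21, stood at 15.4, 20.6 and 17.4 CPM in controls and at 29.9, 25.1 and 24.9 CPM in mutants. The groups did not overlap, at a log2 change of 0.58 (SE 0.13, adjusted p = 0.0307, edgeR). Beside it, the 12 erythroid markers with counts summed to 4102 to 6693 CPM in controls and 2204 to 2956 CPM in mutants, all 12 lower and 8 of them called. The 7 macrophage markers summed to 108 to 137 CPM and 57.5 to 76.1 CPM, with 3 called lower. Their part in the values of the ribosomal protein genes was not tested.

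Of the 4 comparisons of groups, the family shifted most between the stages within controls. At E12.5, 53 of 77 members were lower than at E11.5 and 0 were higher, where 5.76% of all genes were called lower. The median log2 fold change was -0.50, and 76 of 77 were below 0. In 73 of 77 all E12.5 libraries lay below all E11.5 libraries, as in 18.6% of all genes. Among other short genes it was 857 of 1983, and among other short abundant genes 142 of 202. With a fold of at least 1.5 asked as well, 11 remained (5.3% of all genes). The subunits did not part, with 31 of 45 large subunit members called at a median of -0.50 and 22 of 32 small subunit members at a median of -0.53.

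The lowest p-values were those of Rpl21, Rpl35a, Rps27l and Rpl30. Rpl21 stood at 645, 569 and 789.8 CPM in E11.5 controls and at 452, 399.8 and 427 CPM in E12.5 controls, a log2 change of -0.65 (SE 0.13, adjusted p = 0.0217, edgeR). Rps27l stood at 191, 169 and 229.8 CPM and then at 118, 127 and 145 CPM, -0.60 (SE 0.13, adjusted p = 0.0264, edgeR). Rpl30 stood at 306, 260.2 and 376 CPM and then at 197, 188 and 228 CPM, -0.62 (SE 0.14, adjusted p = 0.0293, edgeR). None of the 3 overlapped between the stages. In each, E11.5 control 3 was the highest control library.

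Rps20, which ranks next to Rps4x by RPKM, fell from 923 ± 185 to 589.6 ± 68.7 CPM (SD, n = 3 each), -0.65 (SE 0.15, adjusted p = 0.0314, edgeR). Rpl11 stood at -0.54 (adjusted p = 0.0315), Rps19 at -0.57 (adjusted p = 0.0344) and Rpl5 at -0.47 (adjusted p = 0.0491). Just past the threshold were Rpl39 (-0.48, adjusted p = 0.0517), Rpl3 (-0.40, adjusted p = 0.0545) and Rps6 (-0.43, adjusted p = 0.0549), all by edgeR. These are on the 2 sides of a threshold that their standard errors of 0.12 to 0.15 do not resolve.

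Short genes outside the family were also lower at the median. In the same comparison the median was -0.28 over 1983 other short genes, of which 18.9% were called in either direction, and -0.38 over 202 other short abundant genes, of which 40.6% were called. Non-members of at most 500 bases had a median of -0.52 (n = 74), and the median rose with each step of length to 0.30 above 7000 bases (n = 915). Members changed less along the same axis: -0.58 in the 14 of at most 500 bases and -0.45 in the 10 of 1000 to 1500 bases, where other genes were at -0.22. The 4 members of 1500 to 2000 bases had a median of -0.46 against -0.12, and the 2 of 2000 to 3000 bases, Rpl5 and Rpl22, -0.48 against -0.01. Length here is that of the gene model of the authors, which can exceed the main mRNA: that of Rps15a is 5136 bases.

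**Figure D3:**
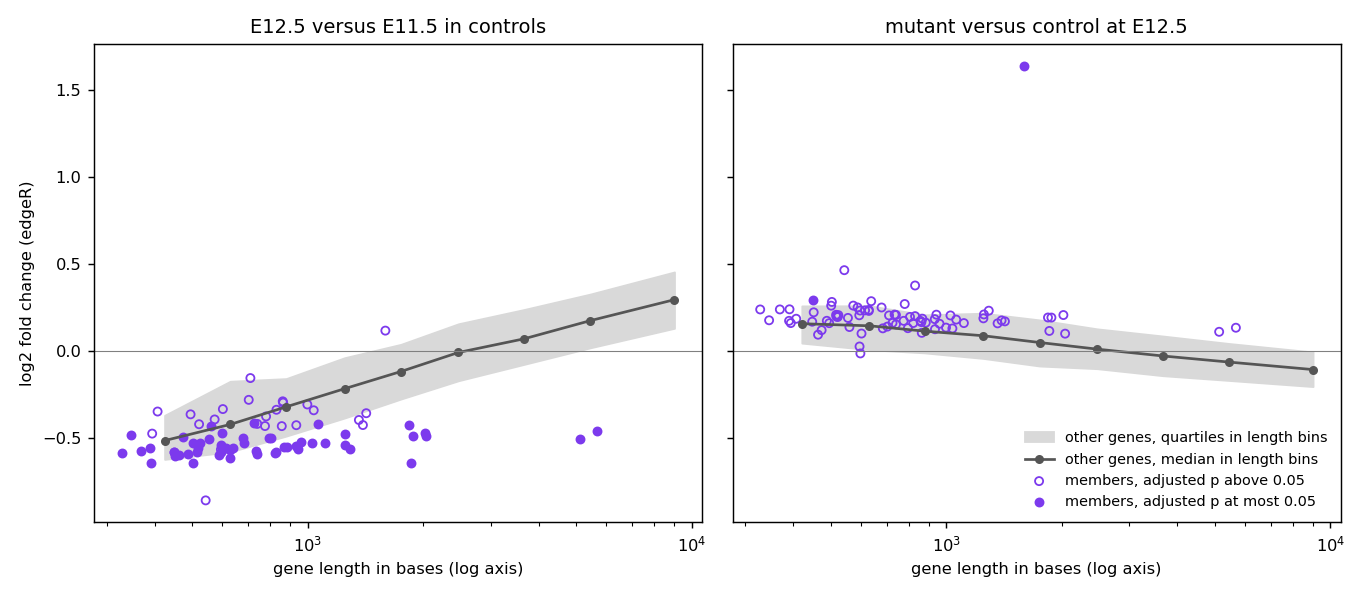
Log2 fold change (edgeR) of members (points; filled where the adjusted p is at most 0.05) by gene length (log axis), over the median and quartiles of other genes in bins of length (line and band). In controls between the stages (left), members have a median of -0.50, from -0.86 (Rpl26) to 0.12 (Rpl3l), while other genes rise from -0.52 to 0.30; between genotypes at E12.5 (right), members have a median of 0.19, from -0.01 (Rpl35a) to 1.64 (Rpl3l).

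When the length trend of non-members was taken out of each library, the median of the members was -0.10 and 3 of 77 were called, all lower, where 2.23% of all genes were. The 3 were Rpl21 (-0.55, SE 0.11, adjusted p = 0.0311), Rps15a (-0.67, SE 0.15, adjusted p = 0.0409) and the row named Rpl24 (-0.65, SE 0.15, adjusted p = 0.04), all by edgeR. All 3 have gene models of over 1500 bases, at 1856, 5136 and 5678 bases, and Rpl21 shares stretches with 80 other genes. Before the trend was removed, Rps15a and the row named Rpl24, the 2 members of 4500 to 7000 bases, had a median of -0.48. Other genes of that length were at 0.17, so removing the trend moved these 2 members further down. Over the 12 libraries both followed the median of the other members, with Pearson r of 0.98 and 0.99. The count of 53 was also not held by other fits. It was 0 with all 12 libraries in 1 fit, 0 with sex as a covariate, 1 without E11.5 control 1 or without E11.5 control 3, and 0 without E12.5 control 1 or 2, while DESeq2 called 72 and the fit without E11.5 control 2 called 73. The median stayed between -0.64 and -0.37 in all of these but the length-adjusted fit. All 3 E11.5 controls but 1 of 3 E12.5 controls were male. Marker sums also moved between the stages: 5 epicardial markers, 3 called lower and 1 higher, went from 366 to 578 CPM at E11.5 to 267 to 381 CPM at E12.5. The 6 endothelial markers, 1 called higher, went from 812 to 1014 CPM to 1082 to 1122 CPM. The 9 cardiomyocyte markers, 5 higher, 4 lower and 0 called, went from 21051 to 23405 CPM to 23609 to 25109 CPM. Of 12 erythroid markers 3 were called lower and 4 higher, and their sums overlapped, at 4347 to 5447 CPM and 4102 to 6693 CPM. Of 7 macrophage markers 1 was called higher, with sums of 68.2 to 126 CPM and 108 to 137 CPM. The part of these cell markers was not tested.

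In mutants, 0 of 78 members were called between the stages with edgeR (0.532% of all genes were), 1 had an unadjusted p under 0.05 (9.2% of all genes), and DESeq2 and limma called 0. The median was -0.21, against -0.13 over other short genes. It was -0.03 with the length trend removed, and leaving out E11.5 mutant 3 turned it to 0.06. Beside it, the erythroid markers went from 4508 to 5750 CPM to 2204 to 2956 CPM, with 7 of 12 called lower, and the macrophage markers from 30.7 to 38.3 CPM to 57.5 to 76.1 CPM, with 5 of 7 called higher. Their part was not tested. Rpl34 had the lowest p, at -0.65 (SE 0.27, adjusted p = 0.503, edgeR), and Rpl21 the next, at -0.44 (SE 0.20, adjusted p = 0.547, edgeR). Rpl21 and Rps2 were the only 2 members whose stages did not overlap, where 8% of all genes were lower without overlap.

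The mutant effect was not shown to differ between the stages for any member. Of 77 members 0 were called with edgeR, as were 0% of all genes, 0 had an unadjusted p under 0.05 (4.5% of all genes), and DESeq2 and limma called 0. The median difference was 0.30, against 0.17 over other short genes, and fell to 0.10 with the length trend removed. Rpl26 had the largest value, 0.98 (SE 0.47, adjusted p = 0.954, edgeR), and Rps3 the next lowest p, 0.35 (SE 0.21, adjusted p = 0.954, edgeR).

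Library by library, the family moved as a block with the other short genes. The share of counts on the 79 genes was 5.24%, 4.52% and 6.03% in E11.5 controls, 4.15%, 4.12% and 6.28% in E11.5 mutants, 3.61%, 3.76% and 4.19% in E12.5 controls and 4.335% to 4.341% in E12.5 mutants. E12.5 mutants were thus the most even group and E11.5 mutants the most uneven. The slope of the log2 deviation of non-members on log2 gene length ran from -0.23 in E11.5 mutant 3 to 0.15 in E12.5 control 1, and the members had their highest median deviation (0.55) and their lowest (-0.35) in the same 2 libraries. Other short genes were at 0.35 and -0.23 there. These points share library size and composition, so no test was made.

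**Figure D4:**
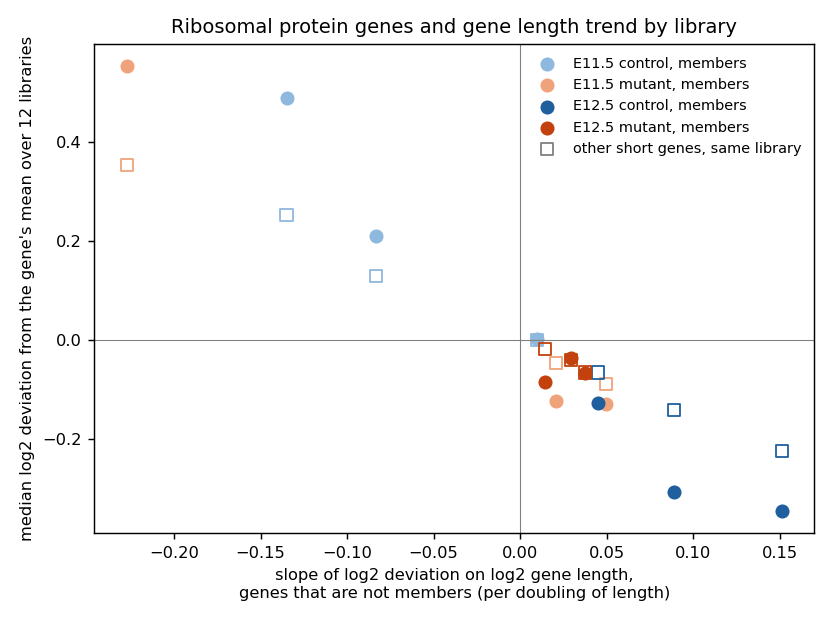
Median log2 deviation of the members (filled circles) and of other short genes (open squares) from each gene's mean over 12 libraries, against the slope of the deviation on log2 gene length among non-members, 1 pair of symbols per library. Both run from upper left (E11.5 mutant 3, members 0.55) to lower right (E12.5 control 1, members -0.35), and the members lie farther from 0 at both ends.

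Within the family, levels were tightly matched. The SD of a member's log2 level over the 12 libraries had a median of 0.29, and of 0.06 after the median of the other members was subtracted. Of 77 members, 71 (92.2%) followed the median of the rest with Pearson r above 0.9 over the 12 libraries, and 53.5% of the 202 other short abundant genes followed it as closely. All genes of a library share its depth and length trend, which differ between the libraries, so these values are descriptive and have no p.

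A few members did not follow the block, and they were picked out after their values were seen. Relative to the median of the other members, Rpl29, Rpl26 and Rpl34 took 2 separate levels across the libraries that did not follow the groups. For every member the widest gap between neighbouring libraries was measured, with at least 3 libraries on each side. It was 0.86 for Rpl29, 0.83 for Rpl26, 0.48 for Rpl34 and 0.37 for Rpl3l on the log2 scale, where the median over members was 0.03. These 4 of 77 members (5.19%) had gaps over 0.3, as did 9 of 202 other short abundant genes (4.46%), 5 of which are globin genes and 3 of which encode muscle proteins (Tnni2, Tnnt1 and Acta1).

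Rpl29 stood at 158, 264, 134 and 165 CPM in E11.5 mutants 1 and 3, E12.5 control 1 and E12.5 mutant 1, and at 70.1 to 127 CPM in the other 8 libraries. Relative to the family it was at 0.61 to 0.69 in those 4 and at -0.39 to -0.26 in the other 8. No group lay wholly on the upper side, and the E11.5 controls were all on the lower side. Rpl29 encodes a large subunit protein that mice can live without, and 71 other genes share stretches with its transcript, as given above.

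Rpl26, whose protein sits near the exit tunnel and also binds p53 mRNA, split the libraries 6 to 6. It was at 0.42 to 0.50 relative to the family in E11.5 controls 2 and 3, E11.5 mutant 1, E12.5 control 2 and E12.5 mutants 1 and 2, and at -0.50 to -0.41 in the others. Each group held both levels. Rpl34 was at 0.33 to 0.40 in E11.5 control 1, E11.5 mutants 1 and 3 and E12.5 control 1, and at -0.25 to -0.15 elsewhere, with all 3 E12.5 mutants on the lower side. Rpl29 and Rpl34 had 3 of their 4 high libraries in common, and Rpl26 was high in only 1 of those 3, E11.5 mutant 1. Their SEs between groups were accordingly wide, 0.36 for Rpl29 and 0.31 for Rpl26 at E11.5, where Rps6 had 0.18. The source of the levels was not tested, and the embryos were of an outbred strain.

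**Figure D5:**
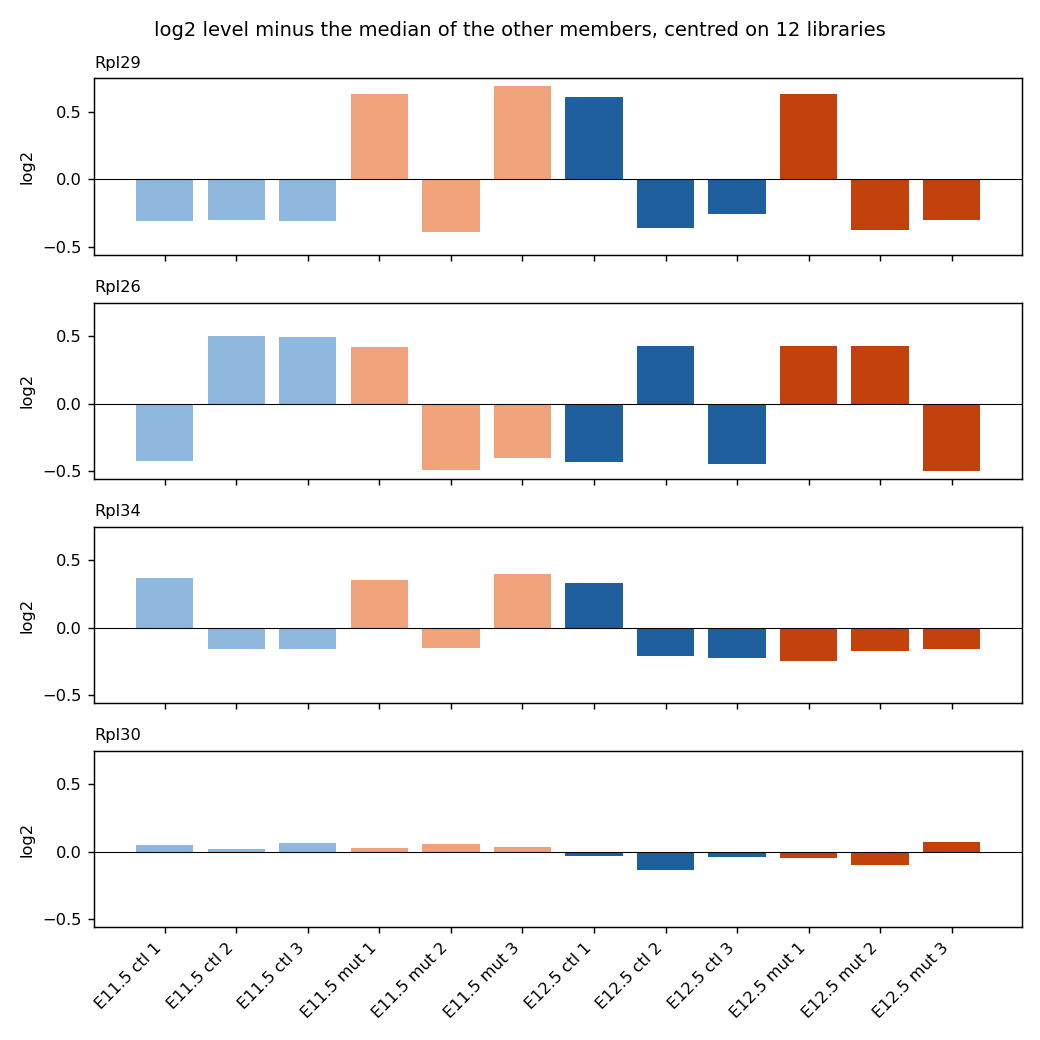
Log2 level relative to the median of the other members, in the 12 libraries in order of group, for Rpl29, Rpl26, Rpl34 and, for comparison, Rpl30. The first 3 take a high and a low level with a gap of 0.48 to 0.86 between them, and Rpl30 stays between -0.13 and 0.07.

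Related genes were tested in the same way. Among ribosomal protein genes outside the naming rule, Rpsa and Fau, both of the small subunit, were called lower at E12.5 in controls, at -0.56 (adjusted p = 0.0385, edgeR) and -0.58 (adjusted p = 0.0352, edgeR), and neither was called with the length trend removed (adjusted p = 0.0585 and 0.123, edgeR). Of 18 translation factors and others with TOP mRNAs, 8 were called lower between the stages in controls, beside 5.76% of all genes, with a median of -0.28. Npm1, a nucleolar chaperone, stood at -0.54 (SE 0.12, adjusted p = 0.0275, edgeR) and Eif3k, a subunit of initiation factor 3, at -0.81 (SE 0.14, adjusted p = 0.0147, edgeR), and these were the 2 of the list still called with the length trend removed.

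Of 49 ribosome biogenesis genes, 8 (16.3%) were called lower between the stages in controls, at a median of -0.11, beside 5.76% of all genes, and 2 with the length trend removed, at a median of -0.03. Among the 8 were Nop10 (-0.71, adjusted p = 0.0321) and Nhp2 (-0.64, adjusted p = 0.0314), of the box H/ACA particles that guide pseudouridylation, and Polr1c (-0.48, adjusted p = 0.0314), a subunit shared by RNA polymerases I and III, all by edgeR. Of 75 mitochondrial ribosomal protein genes, 16 (21.3%) were called lower at a median of -0.29. Of 80 oxidative phosphorylation subunits, 23 (28.8%) were called lower at a median of -0.37. Beside them, 18.9% of other short genes were called in either direction. The share was 33.0% of other genes no longer than the median member and 40.6% of other short abundant genes. With the length trend removed, 2 of the 75 were called lower at a median of -0.06, beside 2.23% of all genes. Of the 80, 1 was called, higher, at a median of 0.03, beside 4.23% of all genes called in either direction. Of 21 growth regulators, at a median of 0.11, 1 (4.76%) was called, beside 11.4% of all genes called in either direction. It was Rps6ka3, a ribosomal S6 kinase, higher at 0.50 (SE 0.13, adjusted p = 0.0379, edgeR).

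The l1 paralogs that the naming rule leaves out were measured as well between the stages in controls. Rpl22l1, a paralog of Rpl22, stood at 178, 153 and 205 CPM at E11.5 and at 115, 114 and 132 CPM at E12.5, at -0.57 on the log2 scale (SE 0.12, adjusted p = 0.0256, edgeR), beside -0.49 for Rpl22 (adjusted p = 0.0404). Rpl7l1 was at -0.24 (SE 0.10, adjusted p = 0.121, edgeR), which did not pass, beside -0.54 for Rpl7 (adjusted p = 0.0405). The gene models of Rpl22l1 and Rpl7l1 are 477 and 2606 bases long. In this comparison non-members of at most 500 bases had a median of -0.52, and those of 2000 to 3000 bases -0.01. The difference between either pair was not tested.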

How the data were processed

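RNA was sequenced from embryonic hearts of 2 genotypes at 2 stages, 3 libraries per group. Per the labels, the authors processed the reads with Bowtie2 and DESeq on mm10. The table the authors deposited as RPKM is another kind of value: each is a whole count times a gene length times a library factor. The comparisons the authors deposited give the mean raw count of each group, taken for expected counts because a mean of 3 whole counts can hold a fraction; their fold changes and p-values were not used. From the condition that counts match these means, whole counts and lengths were recovered for 17827 genes (largest distance from a whole number 4.22e-10), and for 392 genes outside the comparisons by common divisors, where at least 1 library had 100 counts.

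Counts were tested with edgeR 4.0.16 (TMM, quasi-likelihood) on genes with mean RPKM of at least 0.5, recomputed from counts, with only the libraries of a comparison. Adjusted p is Benjamini-Hochberg over all genes tested, and a call is an adjusted p of at most 0.05. The number of libraries and a depth of 12419018 to 18114458 counts limit precision. The length trend was a lowess (span 0.3) per library on non-members, added to the offsets. Alternatives were DESeq2 1.42.0, limma 3.58.1 on log2(RPKM + 0.5), other filters, pseudocounts, scaling, covariates and libraries left out. Scripts were tested on simulated data. The members and lists were chosen with earlier results of these data known. The genes named are those with the 4 lowest p in each direction per comparison, the 4 highest and lowest levels, paralogs, members with other roles, and related lists, with exceptions stated. Dropping the E11.5 library 3 of both genotypes, and the length trend with sex, were chosen after seeing the data. Replicate numbers carry no stated pairing. The list of ribosomal protein genes outside the naming rule is not reported here as a whole.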

Additional observations from a re-analysis of the deposited data

How the results depend on the processing

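The calls between the stages in controls and at E12.5 depended on the fit, and those at E11.5, between the stages in mutants and for the difference of effects did not, staying at 0 in all alternatives. For the 53 members called between the stages in controls, the count was 11 with a fold of at least 1.5, 0 in 1 fit of 12 libraries, 0 with sex as a covariate, 3 with the length trend removed, 12, 11 and 10 by limma with pseudocounts of 0.1, 0.5 and 1, 1 with E11.5 control 3 and E11.5 mutant 3 left out (chosen after seeing the data), and 0 to 73 with each library left out in turn. For the 2 members called at E12.5 it was 8 with DESeq2, 0 in 1 fit of 12 libraries, 0 at a mean RPKM of at least 5 (which removes Rpl3l), 1 with the fold bound, with sex, with the length trend removed, with both of these (added after seeing the data), with each limma fit, and 0 to 16 with each library left out. Beyond these constructions the cause was not tested.

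Whether the replicate numbers pair the libraries cannot be settled with 3 libraries per group. Between E11.5 and E12.5 controls, correlations of same-numbered libraries ranged from -0.12 to 0.15, and those of other pairs from -0.15 to 0.20. Between genotypes at E11.5 the ranges were -0.04 to 0.43 and -0.48 to 0.24. With a replicate block the counts were 66 between the stages in controls and 1 at E12.5, and 0 in the other comparisons. The median of members less that of other short genes was -0.23 between the stages in controls and -0.049 with other genes bounded at the median member length, and it kept its sign in all 20 alternatives.

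Of the single members, none that was called changed sign. Among those not called, at E11.5 sex as a covariate turned Rpl10 to 0.12, Rps21 to 0.24 and Rps27l to 0.22. Leaving out E11.5 control 3 and E11.5 mutant 3 turned Rpl34 to -0.26 at E11.5 and its difference of effects to 0.29. Sex turned Rpl3l to -0.12 between the stages in controls. With each library left out in turn, sign changes occurred for Rpl34 (-0.30 to 0.35) and Rpl39l (-0.17 to 0.97) at E11.5, Rpl35a at E12.5 (-0.044 to 0.011), Rpl3l in controls (-0.30 to 0.22), Rpl26 (-0.13 to 0.35) and Rps19bp1 (-0.11 to 0.29) in mutants, and Rpl29 (-0.83 to 0.086) and Rpl34 (-0.32 to 0.33) in the difference of effects. Depth limited Rpl3l, with 4 to 46 counts per library, and Rpl39l, with 0 to 12.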
